A study of Mus musculus with 13 samples.

Results

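Tumour necrosis factor (TNF), 2 ligands of its family, 4 receptors of the family and 1 receptor adaptor were followed across microglia of wild type and 5xFAD mice. The genes were taken by symbol from the deposited expression table: Tnf, Tnfsf8, Tnfsf9, Tnfrsf1a, Tnfrsf1b, Ltbr, Cd40 and Traf1, which are 8 of its 19737 genes. Microglia are the resident macrophages of the brain. The 13 libraries were rRNA-depleted total RNA, and expression is given in FPKM, fragments for each kilobase of a gene's exons, scaled to the total of the library.

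The libraries formed 4 groups. Of wild type microglia there were 3 libraries and of 5xFAD microglia 2 libraries from mice treated with AAV PHP.eB-EGFP, an adeno-associated virus with a capsid that enters the brain, here carrying a green fluorescent protein. A further 4 libraries of 5xFAD came after treatment with such a virus for the circular RNA circPOLR2A. Their treatment labels run from circPOLR2A(9,10) through (9,11) and (9,12) to (9,13), while the design text of the series gives (9,10) for all of them, so whether they share a construct is not settled here. The last group was 5xFAD; PKR KO (n = 4), in which the kinase PKR, activated by double-stranded RNA, was knocked out, and for which no virus is named. The transgenes of 5xFAD mice, used to model Alzheimer's disease, are driven by the neuronal Thy1 promoter, so they are made in neurons and not in the cells measured. Age, sex and the cells in which PKR was deleted are not given in the sources used here. The labels give no pooling and do not say that libraries of a group came from separate animals, so p-values measure the spread between these libraries.

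TNF is made as a membrane protein, cut loose by a protease, and bound by 2 receptors. Tnfrsf1a is found on most cells and carries a death domain, and Tnfrsf1b, without a death domain, is found mainly on immune cells, microglia among them. Ligand binding gathers adaptor proteins and ubiquitin ligases that switch on NF-kappaB and MAP kinases, and NF-kappaB in turn raises genes that damp the pathway, of which Tnfaip3 is the best known. Microglia are the main source of TNF in the brain.

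The libraries held 57.7 to 70.0 M fragments in PKR KO and 45.2 to 54.9 M in the other groups. All 10 microglia markers listed were found in every group, with summed levels of 2694 to 4822 FPKM. T cell markers summed to 0.408 to 1.02 FPKM. The third wild type library stood apart. Its mean correlation with its own group was 0.934, against 0.958 to 0.993 for the other libraries. Its 6 oligodendrocyte markers summed to 1564 FPKM, against 218 to 775 FPKM elsewhere. Its microglia markers had the lowest sum of all libraries, 2694 FPKM against 3217 to 4822 elsewhere. Eif2ak2, which encodes PKR, was at 3.31 to 4.61 FPKM in PKR KO, 4.14 to 5.23 in wild type, 6.49 and 6.59 in 5xFAD EGFP and 7.37 to 8.11 with circRNA. PKR KO was thus lower than both other 5xFAD groups but overlapped wild type, and which exons the knockout removed is not given. The PKR KO libraries alone carry library names in the labels, and theirs is the only group for which no virus is named. Knockout, virus treatment and any difference in library making thus cannot be told apart.

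The promoters of Tnf and Tnfrsf1b are shown because Tnf was raised in all 3 groups of 5xFAD while its receptor Tnfrsf1b was not. Promoters from RefSeq (GRCm38.p6) were matched for 6 of the 8 genes, all but Tnfsf9 and Cd40. Each line is the 250 bases before the gene's start, 5′ to 3′ on the gene's strand, with capitals for the matches described next.
Tnf (chr17:35202008-35202257, minus strand): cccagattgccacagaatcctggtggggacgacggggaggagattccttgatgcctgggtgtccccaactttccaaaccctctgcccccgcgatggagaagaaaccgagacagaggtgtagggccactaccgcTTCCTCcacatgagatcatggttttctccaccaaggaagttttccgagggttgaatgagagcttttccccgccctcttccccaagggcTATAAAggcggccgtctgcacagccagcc
Tnfrsf1b (chr4:145246871-145247120, minus strand): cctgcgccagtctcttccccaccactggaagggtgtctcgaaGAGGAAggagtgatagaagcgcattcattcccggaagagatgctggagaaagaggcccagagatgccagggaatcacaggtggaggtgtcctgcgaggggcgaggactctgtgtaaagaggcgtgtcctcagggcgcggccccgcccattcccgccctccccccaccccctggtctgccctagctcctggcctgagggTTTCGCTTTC
Both strands were searched for 5 motifs. In the Tnf promoter the capitals mark a TATA box (TATAAA) starting 29 bases before the start and, on the other strand, the core of the macrophage factor PU.1 (GAGGAA) at 117 bases before it. In the Tnfrsf1b promoter they mark the PU.1 core at 208 bases and an interferon-stimulated response element (ISRE, on the other strand) at 10 bases before the start. Over all 32851 RefSeq promoters of this length, 12.4% held the TATA letters, 23.3% the PU.1 core and 2.98% the response element. AP-1 letters (TGANTCA) and the NF-kappaB consensus were in none of the 6 windows and in 6.75% and 3.90% of all promoters. Ltbr held a PU.1 core at 72 bases before its start. These are letter matches in a short window and not measured binding.

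Among the ligands, Tnf (chr17:35199381-35202007, minus strand, GRCm38) was higher in every 5xFAD library than in every wild type library. Wild type microglia had 4.93, 6.77 and 3.23 FPKM, 5xFAD EGFP 11.5 and 15.6, circRNA 12.1, 12.6, 11.1 and 9.82, and PKR KO 17.7, 29.3, 12.1 and 26.4. The 10 libraries of 5xFAD did not overlap wild type, while the 5xFAD groups overlapped one another. The highest Tnf values, 3 of the 4 PKR KO libraries, were also the most scattered.

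Changes were tested with limma on log2(FPKM + 1), a scale that understates the change of genes near or under 1 FPKM, with p-values adjusted over 10817 genes. Mean Tnf was 4.98 ± 1.77 FPKM (SD, n = 3) in wild type and 13.5 ± 2.91 (SD, n = 2) in 5xFAD EGFP, a ratio of 2.72 and a log2 change of 1.31 (SE 0.32, adjusted p = 0.0171). With circRNA it was 11.4 ± 1.22 FPKM (SD, n = 4), a log2 change of 1.09 over wild type (SE 0.27, adjusted p = 0.0102), and in PKR KO 21.4 ± 7.91 (SD, n = 4), a log2 change of 1.87 (SE 0.27, adjusted p = 2.26e-04). These 3 comparisons share the wild type libraries. In bulk RNA, more cells making Tnf and more Tnf RNA in each cell, or fewer and less, cannot be told apart. The call in 5xFAD EGFP rested on its 2 libraries: the adjusted p was 0.0529 without replicate 1, 0.175 without replicate 2, and 0.0506 when the 2 groups were fitted alone.

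Among 5xFAD groups no difference in Tnf passed the test. The log2 change with circRNA against EGFP was -0.22, with a 95% interval from -0.88 to 0.44 (adjusted p = 0.807). In PKR KO against EGFP it was 0.56, with an interval from -0.10 to 1.22 (adjusted p = 0.447). With circRNA against PKR KO it was -0.78, from -1.32 to -0.24 (adjusted p = 0.0790). This last difference passed without PKR KO replicate 3, the lowest of its group (-1.01, adjusted p = 0.0379), and with libraries weighted by their quality (adjusted p = 0.0233). It also passed with the replicate number as a block (-0.78, adjusted p = 0.0390), a pairing that the labels do not state. With any other circRNA or PKR KO library left out it did not pass, and the smallest change was -0.61 (adjusted p = 0.198) without PKR KO replicate 2.

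**Figure D1:**
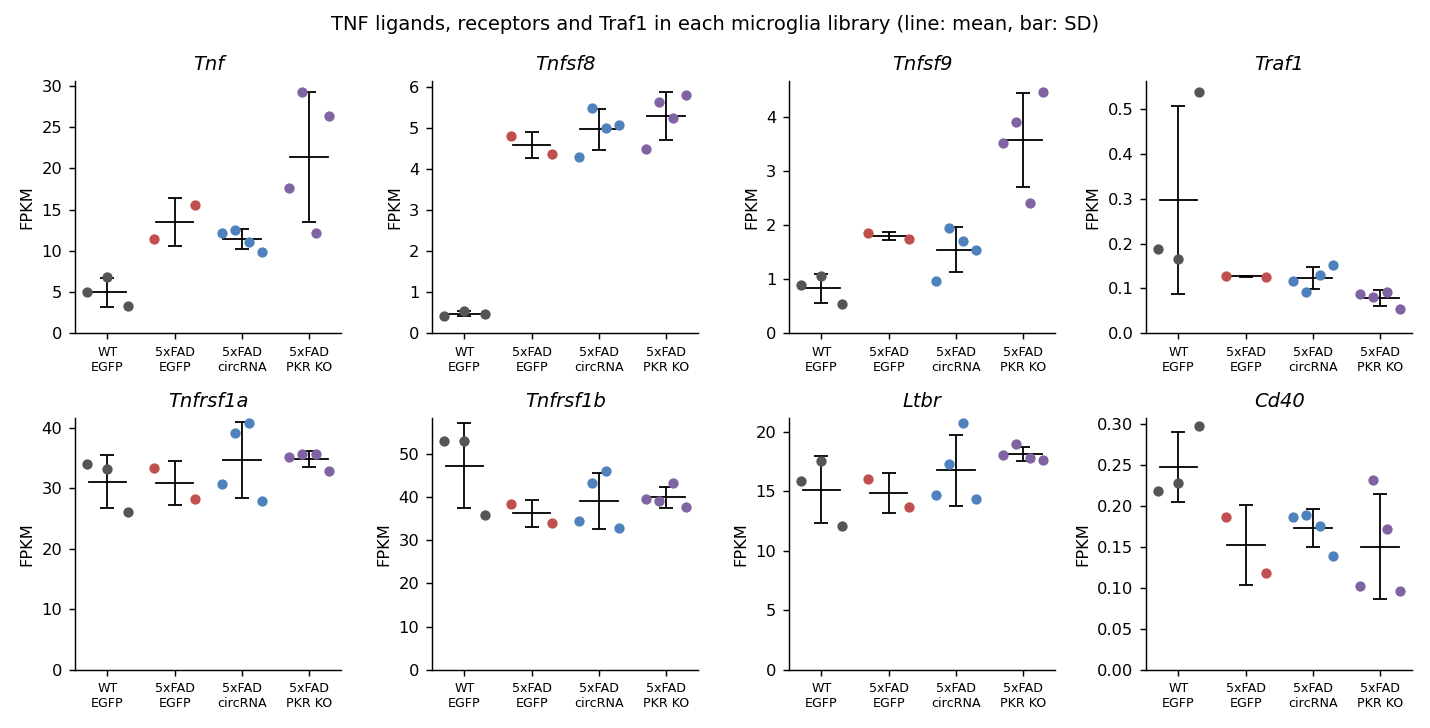
Expression (FPKM, linear axis from 0) of the 8 genes in each library, 1 point per library in 4 groups, with the group mean (line) and SD (bar). Tnf and Tnfsf8 in the 10 libraries of 5xFAD lie above all 3 wild type libraries, and Tnfsf9 is highest in PKR KO (2.42 to 4.47 FPKM).

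Tnfsf8 (chr4:63831308-63861347, minus strand), the ligand of the T cell and B cell receptor Tnfrsf8, showed the clearest separation of all. It was at 0.403, 0.529 and 0.474 FPKM in wild type. In 5xFAD it was at 4.81 and 4.36 with EGFP, 4.29, 5.50, 4.99 and 5.08 with circRNA, and 4.49, 5.62, 5.25 and 5.80 in PKR KO. Wild type was low throughout and the 5xFAD groups lay on top of each other. The ratio of means to wild type was 9.78 with EGFP, 10.6 with circRNA and 11.3 in PKR KO. On the log2(FPKM + 1) scale the changes were 1.93 (SE 0.10, adjusted p = 1.99e-07), 2.02 (SE 0.09, adjusted p = 1.27e-08) and 2.09 (SE 0.09, adjusted p = 8.95e-09). Tnfsf8 passed the filter of a mean of 1 FPKM through its 5xFAD libraries, so a difference of this kind was a condition of its being tested there. With no filter (18291 genes tested) the adjusted p were 2.30e-06, 2.17e-07 and 1.59e-07. Wild type values rested on 73 to 96 fragments, a counting error of at most 11.7%.

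Between 5xFAD groups the log2 change of Tnfsf8 was 0.09 with circRNA against EGFP (95% interval -0.12 to 0.31, adjusted p = 0.774) and 0.17 in PKR KO against EGFP (-0.05 to 0.38, adjusted p = 0.483). With circRNA against PKR KO it was -0.08 (-0.25 to 0.10, adjusted p = 0.591). None passed the test. Tnfrsf8 itself, the receptor of Tnfsf8, was at 0.0286 to 0.141 FPKM in all libraries.

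Tnfsf9 (chr17:57105325-57107757, plus strand), the ligand of the costimulatory receptor Tnfrsf9, was low in wild type and highest in PKR KO. Wild type had 0.886, 1.06 and 0.538 FPKM and 5xFAD EGFP 1.85 and 1.75. The circRNA libraries had 0.969, 1.95, 1.70 and 1.54, and PKR KO 3.52, 3.92, 2.42 and 4.47. Every PKR KO library was above every other library, and circRNA replicate 1 fell within the wild type range. PKR KO replicate 4, the highest in Tnfsf9, also had the highest sum of 6 neutrophil markers (18.2 FPKM, against 1.21 to 7.98 in the other libraries), and their part in its Tnfsf9 and Tnf levels was not tested. Values rested on 35 to 354 fragments. It shares 618 bases with Gm11110, a long noncoding RNA on the other strand, and how counting treated strand is not given, so part of its reads may be uncertain. Its receptor Tnfrsf9 was listed at 0 to 0.0481 FPKM.

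Tnfsf9, too, reached the filter through its 5xFAD libraries. The log2 change in PKR KO against wild type was 1.32 (SE 0.17, adjusted p = 9.14e-05), from a mean of 0.827 ± 0.265 FPKM (SD, n = 3) to 3.58 ± 0.870 (SD, n = 4). With no filter its adjusted p was 4.03e-04. Against wild type it was 0.63 in 5xFAD EGFP (SE 0.20, adjusted p = 0.0564) and 0.47 with circRNA (SE 0.17, adjusted p = 0.0568), neither of which passed. Both passed with a pseudocount of 0.1, at 1.08 (adjusted p = 0.0361) and 0.83 (adjusted p = 0.0345), a scale that shrinks low genes less. The first also passed without wild type replicate 2 (adjusted p = 0.0479), rescaled to the same sum (0.55, adjusted p = 0.0495) and with median-ratio scaling (0.66, adjusted p = 0.0470), and the second without circRNA replicate 1 (adjusted p = 0.0222).

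With circRNA, Tnfsf9 was lower than in PKR KO by a log2 change of -0.85 (SE 0.15, 95% interval -1.18 to -0.51, adjusted p = 0.0128), and the 2 groups did not overlap. The adjusted p of this difference stayed between 0.00859 and 0.0459 when any library of the 2 groups was left out. In PKR KO against 5xFAD EGFP the log2 change was 0.69 (0.28 to 1.10, adjusted p = 0.204), and with circRNA against 5xFAD EGFP -0.16 (-0.57 to 0.25, adjusted p = 0.791). Neither passed, although PKR KO and 5xFAD EGFP did not overlap, and the first passed with library quality weights (0.68, adjusted p = 0.0342).

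Both receptors of TNF had higher FPKM, a level per length of gene, than any of the ligands in every group mean. Tnfrsf1a (chr6:125349362-125362484, plus strand) was at 34.1, 33.1 and 26.0 FPKM in wild type, 33.4 and 28.3 in 5xFAD EGFP, 30.7, 39.1, 40.8 and 28.0 with circRNA, and 35.1, 35.7, 35.7 and 32.8 in PKR KO. All groups overlapped. The log2 changes over the 6 comparisons lay between -0.02 and 0.17, and none passed. Against wild type the 95% intervals ran from -0.36 to 0.35 in 5xFAD EGFP, -0.15 to 0.44 with circRNA and -0.13 to 0.47 in PKR KO, and the sign of all 3 changes turned under at least 1 other scaling.

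Tnfrsf1b (chr4:145213463-145246870, minus strand) was at 53.1, 53.0 and 35.9 FPKM in wild type, 38.5 and 34.0 in 5xFAD EGFP, 34.5, 43.3, 46.0 and 33.0 with circRNA, and 39.7, 39.2, 43.2 and 37.7 in PKR KO. Wild type replicates 1 and 2 were above all 5xFAD libraries, and replicate 3 lay among them. The log2 change against wild type was -0.36 in 5xFAD EGFP (SE 0.18, adjusted p = 0.241), -0.26 with circRNA (SE 0.15, adjusted p = 0.244) and -0.22 in PKR KO (SE 0.15, adjusted p = 0.275), so none passed. Without wild type replicate 3, the library that stood apart, they were -0.54 (adjusted p = 0.0279), -0.44 (adjusted p = 0.0277) and -0.40 (adjusted p = 0.0312). Without wild type replicate 1 they were -0.26, -0.16 and -0.13, and without replicate 2 -0.26, -0.17 and -0.13, none of which passed. Over all libraries left out the adjusted p went up to 0.660, 0.518 and 0.597. With libraries rescaled to the same sum they also passed, at -0.53, -0.54 and -0.45, a scaling that moved the median of all genes by -0.14, -0.23 and -0.18. They passed as well with quantile normalization (-0.52, -0.56 and -0.54, with adjusted p of 0.0125, 0.00177 and 0.00178), where the medians of all genes were -0.01, -0.02 and -0.01. With library quality weights the adjusted p were 0.0245, 0.00877 and 0.0399. Border macrophage markers, found on macrophages at the edges of the brain, moved in the same direction (37.0 to 58.9 FPKM summed over 6 genes in wild type, 13.9 to 25.1 in 5xFAD). The sum of 5 monocyte markers was 8.70 to 19.7 FPKM in wild type and 4.63 to 10.1 in 5xFAD, which overlap. Summed microglia markers were 4222, 4296 and 2694 FPKM in wild type replicates 1, 2 and 3, and 3217 to 4822 in 5xFAD. The part of these marker sets in the result was not tested.

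The ratio of Tnfrsf1b to Tnfrsf1a within a library does not depend on scaling, and was computed after their values had been seen. It was 1.56, 1.60 and 1.38 in wild type, a mean of 1.51 ± 0.12 (SD, n = 3). It was 1.15 and 1.20 in 5xFAD EGFP, 1.12, 1.11, 1.13 and 1.18 with circRNA, and 1.13, 1.10, 1.21 and 1.15 in PKR KO. All 10 libraries of 5xFAD had a lower ratio than wild type. Exact two-sided permutation tests gave p = 0.0286 with circRNA and in PKR KO against wild type and p = 0.1 in 5xFAD EGFP, each the smallest these group sizes allow. Adjusted over the 12 ratio tests made, these were 0.171, 0.171 and 0.32. None passed, but at these group sizes none could have passed after that adjustment, so the threshold decides nothing here.

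**Figure D2:**
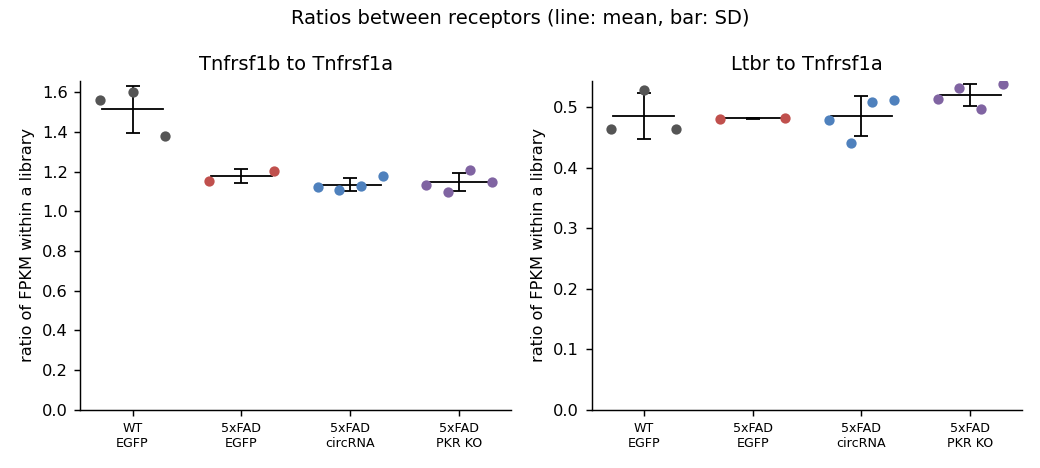
Ratio of FPKM within each library (linear axis from 0) for Tnfrsf1b to Tnfrsf1a and for Ltbr to Tnfrsf1a, 1 point per library, with the group mean (line) and SD (bar). The first ratio is 1.38 to 1.60 in wild type and 1.10 to 1.21 in the 10 libraries of 5xFAD. The second overlaps wild type in every group of 5xFAD, while 5xFAD EGFP (0.481 and 0.482) lies below PKR KO (0.498 to 0.538).

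Ltbr (chr6:125306571-125313885, minus strand), the receptor of lymphotoxins and of Tnfsf14, was at 15.8, 17.5 and 12.0 FPKM in wild type, 16.1 and 13.6 in 5xFAD EGFP, 14.7, 17.3, 20.7 and 14.3 with circRNA, and 18.1, 19.0, 17.8 and 17.7 in PKR KO. The PKR KO libraries were all above wild type, and the other groups overlapped it. The log2 changes against wild type were -0.01, 0.14 and 0.26 in 5xFAD EGFP, circRNA and PKR KO, with adjusted p of 0.969, 0.503 and 0.152. The last passed under median-ratio scaling (0.36, adjusted p = 0.0419). Its ratio to Tnfrsf1a was 0.463 to 0.529 in wild type and 0.441 to 0.538 in 5xFAD.

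Cd40 (chr2:165055627-165072948, plus strand), the receptor through which T cells activate antigen-presenting cells, and Traf1 (chr2:34941750-34961772, minus strand), an adaptor of Tnfrsf1b and an NF-kappaB target, were under the filter, with means over all libraries of 0.180 and 0.150 FPKM. Exact two-sided permutation tests were used for both, with p-values adjusted over the 12 tests. At these group sizes no such test could fall under 0.05 after adjustment, so the threshold decides nothing for either gene. Cd40 was at 0.218, 0.228 and 0.297 FPKM in wild type, 0.187 and 0.118 in 5xFAD EGFP, 0.187, 0.189, 0.175 and 0.139 with circRNA, and 0.102, 0.231, 0.171 and 0.0957 in PKR KO. Wild type was above both 5xFAD EGFP and circRNA without overlap, and 1 PKR KO library lay within its range. The smallest p the sizes allow, 0.0286 against circRNA, became 0.114 after adjustment. At 20 to 55 fragments a library, counting error reached 22.4%. Its ligand Cd40lg was at 0 to 0.0350 FPKM.

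Traf1 was at 0.187, 0.166 and 0.539 FPKM in wild type, 0.127 and 0.126 in 5xFAD EGFP, 0.117, 0.0922, 0.130 and 0.152 with circRNA, and 0.0874, 0.0810, 0.0926 and 0.0536 in PKR KO. All wild type libraries were above all 5xFAD libraries, and the highest value was the third wild type library, where the 6 astrocyte markers also summed to 323 FPKM against 93.8 to 252 elsewhere. The part of those cells in the Traf1 level was not tested. Against wild type the exact p was 0.0286 with circRNA and in PKR KO and 0.3 in 5xFAD EGFP, or 0.114, 0.114 and 0.45 adjusted. In the limma fit with no filter the adjusted p were 0.0966, 0.0269 and 0.223, so PKR KO passed there.

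Counts of members passing were read against all genes tested. In 5xFAD EGFP against wild type 2 of the 6 tested genes passed, where 14.0% of 10817 genes did. With circRNA against wild type 2 passed, where 25.8% of all genes did, and in PKR KO against wild type 3 passed, where 37.0% did. Between circRNA and PKR KO 1 passed, where 6.19% of all genes did. In PKR KO against 5xFAD EGFP none of the 6 passed, where 0.0832% of all genes (9 genes) did, and 1404 genes had an unadjusted p under 0.05. With circRNA against 5xFAD EGFP none passed and 0% of all genes did, while 523 had an unadjusted p under 0.05. Since Tnfsf8 and Tnfsf9 reached the filter through 5xFAD, nothing is read from these counts. The number of all genes passing also depended on single libraries. In 5xFAD EGFP against wild type it was 1514, but 666 without 5xFAD EGFP replicate 1 and 566 without replicate 2. Between circRNA and PKR KO it was 670, but 162 and 310 without circRNA replicates 1 and 3, and 147, 164 and 225 without PKR KO replicates 1, 2 and 3. The 9 genes in PKR KO against 5xFAD EGFP became 0 to 2 with 1 library of these groups left out.

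**Figure D3:**
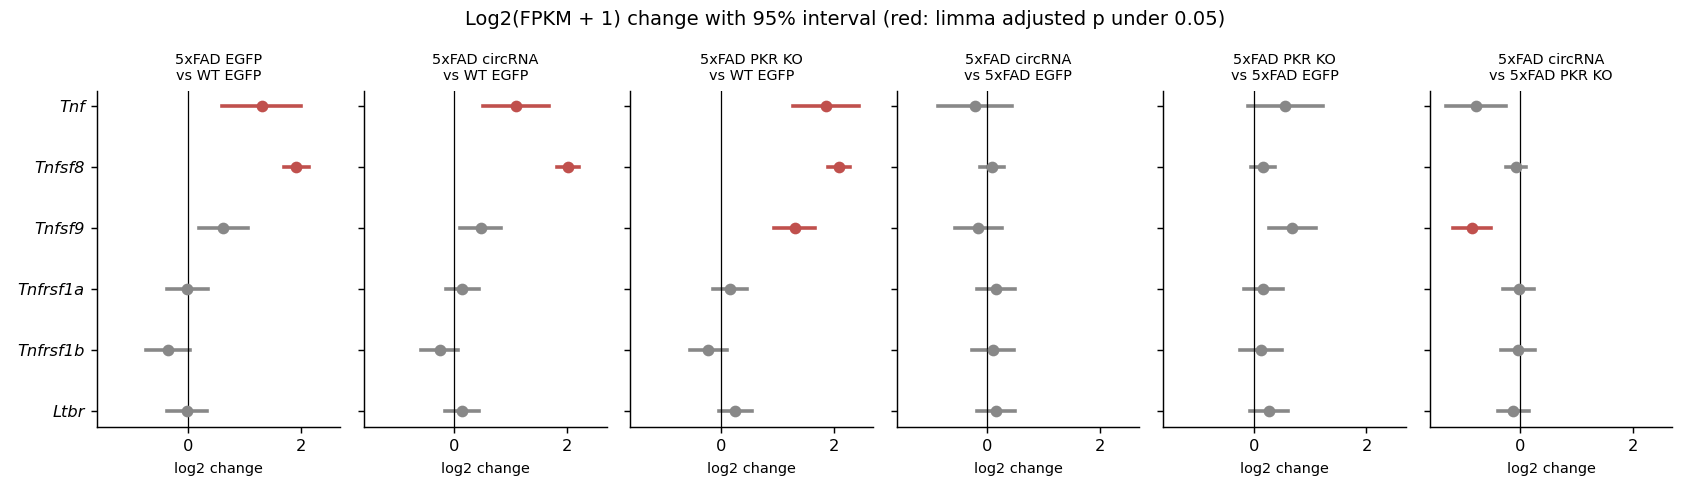
Log2(FPKM + 1) change (point) and 95% interval (line) of the 6 tested genes in each of 6 comparisons, red where the limma adjusted p is under 0.05. The ligands Tnf and Tnfsf8 lie right of 0 in all 3 comparisons with wild type (1.09 to 2.09), while intervals of the receptors Tnfrsf1a, Tnfrsf1b and Ltbr cross 0 in every comparison.

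The other genes of the pathway were taken from 6 lists with 79 genes, of which 50 were tested. In 5xFAD EGFP against wild type 1 was higher and 5 lower, with a median log2 change of -0.07 against -0.03 over all genes. With circRNA 7 were higher and 7 lower (median 0.05, all genes 0.02), and in PKR KO 8 were higher and 9 lower (median 0.03, all genes -0.05). Those 12%, 28% and 34% are near the shares of all genes given above. None passed with circRNA or in PKR KO against 5xFAD EGFP. Rescaling to the same sum turned the split to 1 higher and 18 lower, 1 and 22, and 4 and 21. Median-ratio scaling turned it to 3 and 4, 7 and 7, and 17 and 6.

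Among the brakes of TNF signalling, of 8 tested, 1 rose in 5xFAD EGFP, 4 with circRNA and 4 in PKR KO against wild type, and none fell. These are 12.5%, 50% and 50%, beside 14.0%, 25.8% and 37.0% of all genes. With libraries rescaled to the same sum at most 1 gene of all lists was higher with circRNA, and the brakes Tnip1 and Cyld, named after their values were seen, turned to -0.035 and -0.025. Tnfaip3, a ubiquitin-editing enzyme that shuts down NF-kappaB signalling, was at 8.85 to 15.4 FPKM in wild type, 28.0 and 29.0 in 5xFAD EGFP, 19.9 to 26.7 with circRNA and 48.3 to 63.6 in PKR KO, with no overlap between any 2 groups. Its log2 change over wild type was 1.12 (SE 0.20, adjusted p = 0.00305), 0.86 (SE 0.17, adjusted p = 0.00253) and 2.11 (SE 0.17, adjusted p = 1.97e-06) in these 3 groups. The first call was lost with these 2 groups fitted alone (adjusted p = 0.0542). With circRNA it was lower than in PKR KO by -1.25 (SE 0.15, adjusted p = 0.00284), the order also seen for Tnfsf9. Tnip2, a partner of Tnfaip3, rose by 0.49 with circRNA and 0.73 in PKR KO, and Otulin, which removes linear ubiquitin chains, by 0.42 in PKR KO. With rescaled libraries Tnip2 with circRNA (0.23, adjusted p = 0.0763) and Otulin (0.20, adjusted p = 0.0967) no longer passed.

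Among 19 tested adaptors and ubiquitin ligases, 0, 3 and 3 rose and 0, 1 and 1 fell in 5xFAD EGFP, circRNA and PKR KO against wild type, which is 0%, 21.1% and 21.1% and under the share of all genes each time. Tradd, the adaptor that docks on Tnfrsf1a, rose by 0.31 with circRNA and 0.46 in PKR KO, and Tank, a regulator of TRAF signalling, by 0.33 with circRNA. With rescaled libraries Tradd (0.09, adjusted p = 0.401) and Tank (0.11, adjusted p = 0.298) did not pass with circRNA. Tradd with circRNA was also lost without wild type replicate 3 (adjusted p = 0.136) or circRNA replicates 2 or 3 (0.0806 and 0.0890), with library weights (0.275), with the 2 groups alone (0.0956), with voom on recovered fragments (0.0568) and with no filter (0.0535).

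Of 9 other receptors tested, 2, 2 and 4 fell and none rose, which is 22.2%, 22.2% and 44.4% beside the 14.0%, 25.8% and 37.0% of all genes. Fas, a death receptor, was at 1.98 ± 0.73 FPKM (SD, n = 3) in wild type while 5xFAD EGFP had 0.539 ± 0.200 (SD, n = 2), for a log2 change of -0.93 (adjusted p = 0.00763), with -0.71 in circRNA and -0.61 in PKR KO. Relt fell by 0.40, 0.52 and 0.60 on the log2 scale, and Tnfrsf19 by 0.93 in PKR KO. Fas and Relt reached the filter through wild type, where they were highest. With no filter all 6 of their changes against wild type passed (adjusted p from 4.22e-04 to 0.0263). Beside Tnfrsf19, the median log2 change in PKR KO was -0.95 for 6 oligodendrocyte markers, of which 0 passed, and -0.57 for 6 astrocyte markers, of which 1 rose and 2 fell. Their part in the Tnfrsf19 change was not tested. Without 5xFAD EGFP replicate 2 the Fas change in 5xFAD EGFP was -0.79 (adjusted p = 0.105), and that in PKR KO did not pass without wild type replicate 1 (-0.54, adjusted p = 0.0517) or with library weights (-0.45, adjusted p = 0.0543).

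Of the 5 genes of TNF release, Timp3, an inhibitor of the protease that sheds TNF, fell by 1.55, 1.13 and 1.32 on the log2 scale in 5xFAD EGFP, circRNA and PKR KO, from 15.8 ± 5.52 FPKM (SD, n = 3) in wild type. Rhbdf1, a carrier of that protease, fell by 0.45 in 5xFAD EGFP and 0.35 with circRNA. In all, 0, 0 and 1 of the 5 rose and 2, 2 and 1 fell. The 1 that rose was Rhbdf2, the other carrier, named after its values were seen, at 3.37 ± 0.461 FPKM (SD, n = 3) in wild type and 4.46 ± 0.203 (SD, n = 4) in PKR KO, a log2 change of 0.33 (adjusted p = 0.00733) that did not pass rescaled (0.14, adjusted p = 0.125). Blood vessel markers were also higher in wild type: 6 mural genes summed to 42.1 to 91.3 FPKM there and 14.5 to 33.0 in 5xFAD, and 6 endothelial genes to 51.7 to 122 and 23.9 to 67.0. Their part in the changes of Timp3, Fas and Rhbdf1 was not tested. In 5xFAD EGFP, leaving out replicate 2 left 1 of the 6 pathway calls, and leaving out replicate 1 left 3. Leaving out wild type replicate 3 gave 12, and fitting these 2 groups alone gave 0. There, Timp3 was also lost without wild type replicate 1 (adjusted p = 0.0664), and Rhbdf1 was lost without any of the libraries compared but wild type replicate 2 (0.0592 to 0.225). Relt was lost without wild type replicate 2 (0.0552), 5xFAD EGFP replicate 1 (0.183) or 5xFAD EGFP replicate 2 (0.0732), and with quantile normalization (0.103). With circRNA the calls for Timp3 and Rhbdf1 were lost without wild type replicate 1 (adjusted p of 0.0866 and 0.0634), wild type replicate 3 (0.0707 and 0.0973) or circRNA replicate 2 (0.0603 and 0.0685), that for Rhbdf1 also without circRNA replicate 1 (0.0729) or with the 2 groups alone (0.0819), and that for Timp3 also with library weights (0.0841).

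Of 4 other ligands tested, 1 fell in each comparison with wild type. Tnfsf10, which signals cell death, fell in 5xFAD EGFP (-0.31, adjusted p = 0.0496) and PKR KO (-0.36, adjusted p = 0.00387). The first call held only when rescaled to the same sum or with voom. It was lost with each library of these groups left out (adjusted p from 0.0601 to 0.272) and with all other alternatives (0.0517 to 0.144), and the second was lost with quantile normalization (-0.23, adjusted p = 0.0930). Tnfsf10 was 1.60 to 1.65 FPKM in wild type, 1.08 and 1.16 in 5xFAD EGFP, 1.44 to 1.75 with circRNA and 0.885 to 1.30 in PKR KO. With circRNA it was higher than in PKR KO by a log2 change of 0.37 (SE 0.07, adjusted p = 0.0172), a call lost without PKR KO replicate 1 (adjusted p = 0.0601) and with quantile normalization (0.26, adjusted p = 0.143). Of the 5 tested genes of the death arm, 0, 1 and 2 fell against wild type in the 3 groups and none rose, which is 0%, 20% and 40% beside 14.0%, 25.8% and 37.0% of all genes.

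**Figure D4:**
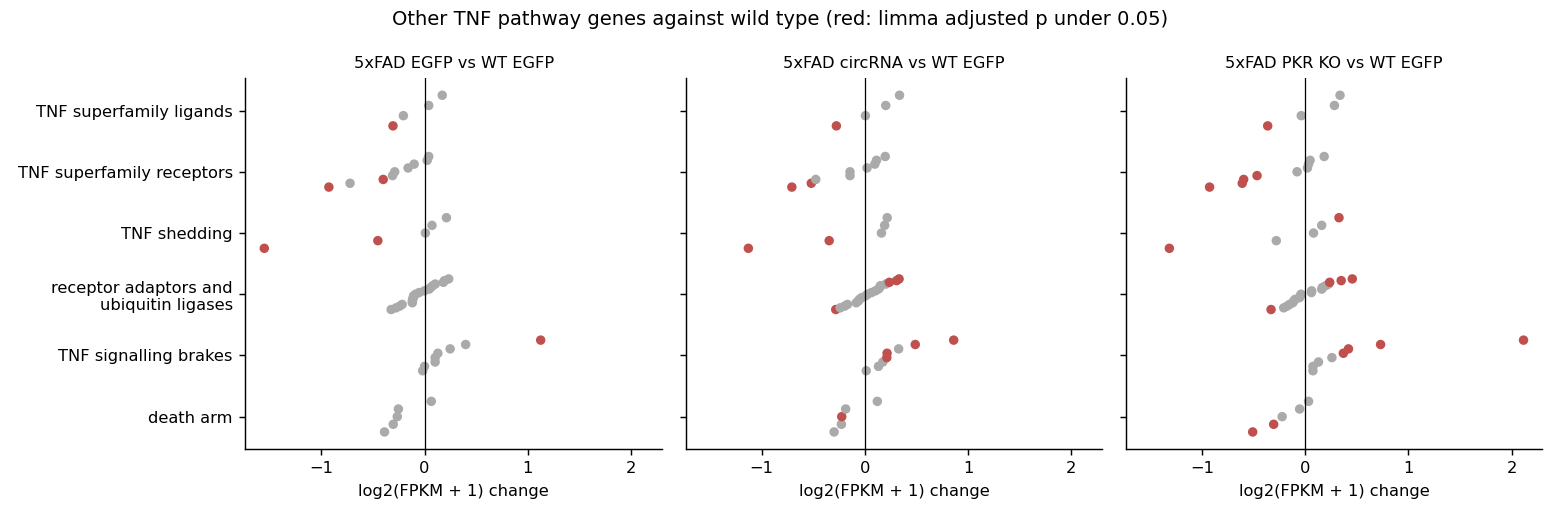
Log2(FPKM + 1) change of the 50 tested pathway genes against wild type in 3 comparisons, 1 point per gene in rows for the 6 lists, red where the limma adjusted p is under 0.05. The brakes have red points only on the right, led by Tnfaip3 (2.11 in PKR KO). With libraries rescaled to the same sum (not drawn) the genes that passed were mostly lower, 22 of 23 with circRNA.

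Immediate-early and dissociation genes, which rise within minutes of cell stress and during tissue dissociation, differed between groups beside Tnf, Tnfsf9 and Tnfaip3. The 16 genes (Fos, Jun, Egr1 and others) summed to 889 to 1429 FPKM in wild type, 1547 and 1655 in 5xFAD EGFP, 1019 to 1467 with circRNA and 1895 to 2368 in PKR KO. Against wild type 6 rose in 5xFAD EGFP, 3 rose and 1 fell with circRNA, and 13 rose and 2 fell in PKR KO, while 14 were lower with circRNA than in PKR KO. These are 37.5%, 25%, 93.8% and 87.5% of the list, beside 14.0%, 25.8%, 37.0% and 6.19% of all genes. The PKR KO group was thus highest for this list, for Tnfsf9 and for Tnfaip3. The part of cell handling in the ligand levels was not tested.

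**Figure D5:**
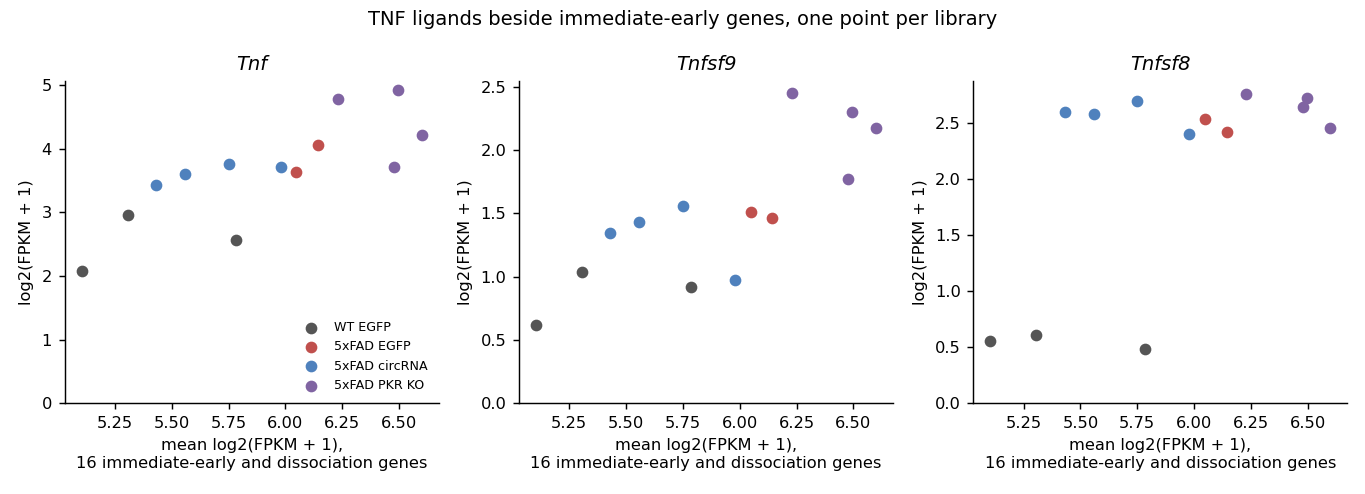
Log2(FPKM + 1) of Tnf, Tnfsf9 and Tnfsf8 (vertical axis from 0) against the mean log2(FPKM + 1) of 16 immediate-early and dissociation genes (horizontal axis, 5.10 to 6.60) in the 13 libraries, coloured by group. The 4 PKR KO libraries at the right have the highest Tnfsf9 and 3 of them the highest Tnf, while Tnfsf8 separates wild type from 5xFAD.

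For Tnf, Tnfsf8, Tnfsf9, Tnfrsf1b, Cd40 and Traf1, the genes with the most similar log2(FPKM + 1) profile over the 13 libraries were listed. This is a description, since all points share library and group. Closest to Tnf were Arhgap17 (r = 0.97), Tbc1d8 (0.97), Pfkfb3 (0.96), the cytokine gene Osm (0.96) and the NF-kappaB regulator Nfkbiz (0.95). After group means were removed these correlations were 0.85 to 0.90. Closest to Tnfsf8 were Cd274, Baiap2l2, Cd200r4, Cst7 and Ctse, all at 0.99, where the correlations within groups went from -0.04 to 0.78. That profile is mostly the step between wild type and 5xFAD. Closest to Tnfsf9 were Ppard, Cic, Irak2, St3gal3 and Bcl3 (0.95 to 0.96, and 0.59 to 0.79 within groups). Closest to Tnfrsf1b were Sash3, Fscn1, Gpr107, Selplg and Scamp2 (0.96 to 0.98, and 0.96 to 0.98 within groups). Cd40 had no close match, the best being Zfp772 (0.80), and Traf1 was most like Tanc1 (0.95), AU022252, Kif19a, Trib2 and Agt, an astrocyte gene (0.94).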

How the data were processed

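Total RNA of microglia was depleted of rRNA and sequenced as stranded libraries, per the labels' protocols. The authors deposited 1 table of FPKM values for 13 libraries. The submitters' processing notes name Bowtie2 2.3.5, HISAT2 2.1.0, featureCounts 1.5.1 and mm10, with no role given, and the strand setting of counting is not given in the sources used here. Low FPKM values step by what 1 fragment is worth. With exon lengths from GENCODE M21 (19394 of 19737 genes), 90.7% of 47122 values under 0.3 FPKM came out whole to within 0.02 fragments (4% by chance), which gave depths and fragments. Counting errors cover counting alone.

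All 13 libraries entered 1 limma 3.58.1 model (R 4.3.3) on log2(FPKM + 1), with 9 residual degrees of freedom and an intensity trend, over the 10817 genes averaging 1 FPKM or more. P-values were adjusted by Benjamini-Hochberg within each of 6 comparisons, with a threshold of 0.05. Cd40 and Traf1, under the filter, had exact permutation tests of log2(FPKM + 1). The method was tested on simulated data. Alternatives were a pseudocount of 0.1, no filter, rescaling to the same sum, median-ratio and quantile scaling, library weights, the compared groups alone, a replicate block, limma's voom on recovered fragments, and leaving out each library.

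The members and lists were chosen with earlier results of these data known. Named pathway genes are, in each comparison, up to 4 in each direction with the largest log2 change among those that passed. Tnfsf10, and other pathway genes whose calls depended on the processing, were also named outside that rule, after their values were seen. Similar genes are the 5 with the highest Pearson r.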

Additional observations from a re-analysis of the deposited data

Results flagged for a closer look

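For 3 genes the effect of circRNA and the effect of PKR KO, both measured against 5xFAD EGFP, differed by limma's test of the difference, which is the comparison of circRNA with PKR KO itself since the shared EGFP libraries cancel. The difference was -0.85 for Tnfsf9 (adjusted p = 0.0128), -1.25 for Tnfaip3 (adjusted p = 0.00284) and 0.37 for Tnfsf10 (adjusted p = 0.0172), on the log2(FPKM + 1) scale. Each of these genes had no overlap between the 4 circRNA and the 4 PKR KO libraries. They were picked by that test on the same libraries, so this is no separate support. The Tnfsf10 difference did not pass without PKR KO replicate 1 (adjusted p = 0.0601) or with quantile normalization (adjusted p = 0.143). Of the 16 immediate-early genes 14 were lower with circRNA and passed, while Hspa1a and Hspa1b were higher and did not pass (adjusted p of 0.139 and 0.154). Their part in these differences was not tested.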

How the results depend on the processing

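Over 684 alternatives for 48 log2 changes of members, 626 kept direction and side of the threshold, 3 lost the call (all Tnf in 5xFAD EGFP against wild type), 24 gained it and 31 turned sign, all of these last in changes that had not passed. For Cd40 and Traf1 the exact p adjusted over 12 tests is compared, and limma's where the filter was dropped. At these group sizes no such exact test could reach 0.05 after adjustment, with or without a library left out. Those alternatives could thus only keep their side of the threshold. Of 614 for 39 calls of pathway genes, 483 held, 128 were lost and 3 turned sign. Libraries left out are those of the groups compared. The cause of each change below was not tested. Members passing in 5xFAD EGFP against wild type were 4 after rescaling to the same sum, 1 with these groups alone and 1 to 3 leaving out a library. They were 1 with library weights in PKR KO against 5xFAD EGFP. Between circRNA and PKR KO they were 2 with library weights and 1 to 2 leaving out a library. Pathway genes passing in 5xFAD EGFP against wild type were 6 in the main fit, 19 rescaled, 14 with weights, 0 with these groups alone and 1 to 12 leaving out a library. In PKR KO against 5xFAD EGFP they were 1 with median-ratio scaling, 4 with weights and 2 with the groups alone. With circRNA against wild type they were 23 rescaled, 6 with the groups alone and 8 to 15 leaving out a library. Between circRNA and PKR KO they were 7 with median-ratio scaling, 16 with weights and 1 to 2 leaving out a library. Over all genes, rescaling gave 3709, 5676 and 6595 calls against wild type in 5xFAD EGFP, circRNA and PKR KO, of which 708, 995 and 1174 were higher, against 1514, 2796 and 3997 with 827, 1925 and 1898 higher. Median-ratio scaling gave 845 calls between circRNA and PKR KO with 148 higher, against 670 with 463 higher. Library weights gave 822 in PKR KO against 5xFAD EGFP and 3161 between circRNA and PKR KO. The groups alone gave 577 in PKR KO against 5xFAD EGFP, 509 in 5xFAD EGFP and 1725 with circRNA against wild type. The 9 genes in PKR KO against 5xFAD EGFP were 46 with median-ratio scaling and 0 with a pseudocount of 0.1, no filter, rescaling, quantile scaling or voom.

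Signs turned as follows. Traf3, Tnip1 and Cyld, which passed with circRNA against wild type, were -0.0072, -0.035 and -0.025 rescaled. Tnfrsf1a was 0.060 in 5xFAD EGFP against wild type with median-ratio scaling (-0.12 to 0.11 leaving out a library). With circRNA against wild type it was -0.14 rescaled, -0.13 with quantile scaling and -0.044 with weights. In PKR KO against wild type it was -0.058 rescaled and -0.10 with quantile scaling, and between circRNA and PKR KO -0.11 to 0.069 leaving out a library. Tnfrsf1b with circRNA against 5xFAD EGFP was -0.016 rescaled, -0.041 with quantile scaling and -0.012 with weights. In PKR KO against 5xFAD EGFP it was -0.020 with quantile scaling, and between circRNA and PKR KO -0.12 to 0.037 leaving out a library. Tnfsf8 with circRNA against 5xFAD EGFP was -0.0039 rescaled. Ltbr in 5xFAD EGFP against wild type was 0.048 with median-ratio scaling and -0.16 to 0.10 leaving out a library. With circRNA against wild type it was -0.14 rescaled, -0.088 with weights and -0.0057 to 0.25 leaving out a library. Cd40 in PKR KO against 5xFAD EGFP was 0.0037 with median-ratio scaling and -0.047 to 0.039 leaving out a library, and with circRNA against 5xFAD EGFP -0.018 to 0.069. Traf1 with circRNA against 5xFAD EGFP was -0.017 to 0.0082 leaving out a library. The log2 ratio of Tnfrsf1b to Tnfrsf1a, added after seeing the data, was -0.035 to 0.011 between circRNA and PKR KO leaving out a library, and -0.48 to -0.32 in all comparisons with wild type.

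Replicate numbers are shared between groups, but the labels do not say that equal numbers mark paired libraries. Deviations of same-numbered libraries from group means had r from -0.42 to 0.69 with circRNA and wild type. All r were positive only in PKR KO with 5xFAD EGFP (0.27 to 0.38) and circRNA with PKR KO (0.036 to 0.55). By replicate, the second numbers of the circRNA labels and those of the PKR KO library names both run from 10 to 13. Whether libraries are paired is thus not settled here. With the replicate number as a block, Tnf passed between circRNA and PKR KO (-0.78, adjusted p = 0.0390), so that 2 members passed there. Pathway genes passing with the block were 1 in PKR KO against 5xFAD EGFP and 8 with circRNA against wild type (14 without it), and no other member changed its call. Against wild type, Tnfsf10 (adjusted p = 0.0881) and Rhbdf1 (0.0506) lost their calls in 5xFAD EGFP, Tradd (0.0744), Traf3, Tnip1, Cflar, Tnfsf13 and Traf5 (0.0550 to 0.0882) with circRNA, and Casp8 (0.0812) and Tnfrsf13b (0.0673) in PKR KO. Over all genes the block gave 1306, 0, 22, 2678, 3870 and 448 calls, in the order 5xFAD EGFP against wild type, circRNA and PKR KO against 5xFAD EGFP, circRNA and PKR KO against wild type, and circRNA against PKR KO. Depth limited Cd40 and Traf1 most, at 20 to 240 fragments a library.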

Other observations

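Other receptors of the family were also found, and are named here after their values were seen. Tnfrsf21, a death domain receptor, was at 34.6 ± 7.76 FPKM (SD, n = 3) in wild type and 30.3 ± 2.00 (SD, n = 2), 37.0 ± 4.37 and 34.5 ± 1.09 (SD, n = 4 each) in 5xFAD EGFP, circRNA and PKR KO. Tnfrsf14, the receptor of Tnfsf14, was at 18.1 ± 2.42 in wild type and 14.3 to 18.5 in the group means of 5xFAD. Tnfrsf11a, the receptor known as RANK, was at 11.7 ± 2.11 in wild type and 11.8 to 13.3 in the others. No comparison of these 3 genes passed. Tnfrsf13b, a receptor of the B cell survival factor Tnfsf13b, was at 9.71 ± 2.60 FPKM in wild type and 6.62 ± 0.78 in PKR KO, a log2 change of -0.47 (adjusted p = 0.0355). This call was lost without wild type replicates 1 or 2 or PKR KO replicates 1, 3 or 4 (adjusted p from 0.0624 to 0.145), with no filter (0.0505), with median-ratio scaling (0.0764) and with the 2 groups alone (0.0646).

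Ltb, a ligand of Ltbr, was under the filter. It was at 0.988 ± 0.121 FPKM (SD, n = 3) in wild type, 0.512 ± 0.130 (SD, n = 2) in 5xFAD EGFP, 0.492 ± 0.069 (SD, n = 4) with circRNA and 0.566 ± 0.121 (SD, n = 4) in PKR KO. Summed B cell markers were 2.08 to 3.97 FPKM in wild type, with medians of 2.23, 2.90 and 2.03 in 5xFAD EGFP, circRNA and PKR KO, and summed T cell markers were 0.452 to 0.914 FPKM in wild type and 0.408 to 1.02 in 5xFAD. The part of such cells in the Ltb level was not tested.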
